A study of Homo sapiens with 6 samples.

Results

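The histone genes counted in RNA of T47D cells, an established line of luminal breast cancer cells, are described here under normoxia and hypoxia. They were found by symbol: names starting HIST1H to HIST4H (cluster histones) or H1F, H2AF or H3F3 (replacement variants), without a hyphen, with a mean of at least 10 read counts over 6 libraries. This gave 43 of the 27754 genes in the files, of which 34 were cluster histones (of 73 listed) and 9 were replacement variants (of 17 listed). T47D cells in RPMI with serum were kept at 20% O2 (normoxia, 3 libraries) or in a chamber at 0.5% O2 for 48 h (hypoxia, 3 libraries), and no genotype or agent other than oxygen separated the groups. RNA was made into stranded mRNA libraries, and each file gives read counts per gene. The labels do not say whether replicates were separate cultures, while the study speaks of independent experiments and of paired hypoxia and normoxia samples. The p-values measure the spread between these libraries.

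Cluster histones are the bulk packaging proteins of chromatin, and their genes lie in groups, have few or no introns and are mainly transcribed while DNA is copied in S phase. Their mRNAs as a rule carry no poly(A) tail but end just after a short stem-loop, which stem-loop binding protein (SLBP) holds during processing, export and decay. Replacement variants such as H3.3, H2A.Z and macroH2A are made throughout the cell cycle from ordinary polyadenylated mRNAs and are placed into chromatin by their own chaperones.

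The stem-loop was the sequence feature that separated the classes, and it is printed first because it marks the mRNA end at which the classes are known to differ. It was found in the counted exons, or within 50 bases after them, in 33 of the 34 cluster members (HIST2H2BA lacked it) and in 1 of the 9 replacement members, H2AFX. Over the last 150 counted bases and the 50 after them, it was present in 75.3% of the 81 listed histone genes that could be searched and in 1 of 26927 other genes. Capitals mark the 16 bases of stem and loop, with 5 bases on each side in lower case, written 5′ to 3′ along the mRNA strand of the GRCh37 genome, the build of the files. All 8 lie in an annotated exon, in bases that GENCODE marks as untranslated.
HIST1H1C: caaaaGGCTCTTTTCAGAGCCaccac
HIST1H4H: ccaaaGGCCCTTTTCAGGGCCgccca
HIST1H2BC: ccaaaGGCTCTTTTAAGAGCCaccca
HIST1H2BK: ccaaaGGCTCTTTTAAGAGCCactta
HIST1H4K: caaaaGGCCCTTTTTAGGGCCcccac
HIST1H2AK: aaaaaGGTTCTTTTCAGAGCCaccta
HIST1H3E: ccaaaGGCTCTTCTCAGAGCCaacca
H2AFX: acaaaGGCCCTTTTAAGGGCCaccac
The capitals lie at chr6:26055972-26055987 on the minus strand (HIST1H1C), chr6:26285359-26285374 minus (HIST1H4H), chr6:26123700-26123715 minus (HIST1H2BC), chr6:27114145-27114160 minus (HIST1H2BK), chr6:27798956-27798971 minus (HIST1H4K), chr6:27805663-27805678 minus (HIST1H2AK), chr6:26225824-26225839 plus (HIST1H3E) and chr11:118965608-118965623 minus (H2AFX).

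Among the members, 9 distinct stem-loops were present. The form shown for HIST1H1C was shared by 20 members, and the form shown for HIST1H4H by 4 H4 genes. The form of HIST1H2BC and HIST1H2BK was shared by 4 H2B genes. HIST1H4K, HIST1H2AK and HIST1H3E each carried a form of their own among the cluster members.

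The annotated gene end divided the cluster members again. In 28 of them the counted exons stopped within 100 bases of the stem-loop. In 5 H2B genes the annotation ran on past it, by 394 bases in HIST1H2BK, 379 in HIST1H2BD, 578 in HIST2H2BF, 1728 in HIST2H2BE and 110 in HIST2H2BC, and the run-on part held a poly(A) signal (AATAAA or ATTAAA) in all but HIST2H2BC. H2AFX ran on by 1023 bases, also with a poly(A) signal.

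Total counts were 32989104 to 40943424 per library except hypoxia replicate 3, with 89883409. The deposited labels name an mRNA library, but the way mRNA was selected is not given in the sources used here. The hypoxia labels were matched by VEGFA, a blood vessel growth factor (39.2 ± 6.51 CPM, read counts scaled to library size, in normoxia and 804 ± 35.8 in hypoxia, SD, n = 3), and by CA9, a carbonic anhydrase (0.610 ± 0.380 and 24.7 ± 5.92 CPM). All 9 luminal markers were counted, with summed CPM of 13959 to 18121 in normoxia and 10193 to 13471 in hypoxia, and ESR1, PGR, GATA3 and FOXA1 fell. The 12 markers of other cell types summed to 85.6 to 110 CPM in normoxia and 85.4 to 118 in hypoxia, with 8 of them too low to test and PTPRC at 0 in every normoxia library. COL1A1 made up most of these sums. Of the 4 tested, CD68, a macrophage marker, rose from 1.31 ± 0.335 to 6.80 ± 1.03 CPM (SD, n = 3), PDGFRB, a marker of fibroblasts and pericytes, rose from 0, 0 and 3 counts to 14, 18 and 28, and none fell. Over all genes tested, 30.4% rose and 29.1% fell. In 6 of the 12 all hypoxia libraries lay above all normoxia libraries, and in 0 of them below. The shares over all genes tested were 34.9% above and 32.4% below, but most of the 12 had too few counts to be tested. The part of these markers in the histone values was not tested. Replicate 3 stood apart in both conditions: the chi-square per degree of freedom between libraries was 6.48 between hypoxia replicates 1 and 2 but 63.8 and 76.6 against replicate 3, and in normoxia replicates 1 and 2 were likewise nearest to each other. VIM, a mesenchymal marker, had 395 and 1001 counts in the normoxia and hypoxia libraries of replicate 3 and 7 to 35 in the others. Results are therefore also given without replicate 3 where it mattered.

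The replacement variants held most of the counted histone signal. Cluster mRNAs as a rule lack a poly(A) tail, so selection on such tails, if used, would leave most of them uncounted. Levels, sums and ratios of the classes are therefore of counted RNA only. Their 9 genes took 0.180 to 0.266% of all counts, against 0.0196 to 0.0341% for the 34 cluster genes. Per length, as RPKM (CPM divided by the deposited gene length in kilobases), H2AFZ had the highest level in normoxia (377 RPKM) and HIST1H2BK the highest of the cluster genes (130 RPKM). The next cluster genes were HIST3H2A (40.1 RPKM) and HIST1H1C (28.1 RPKM), and 9 cluster members had a mean under 1 RPKM over all libraries. The number of cluster genes at 10 RPKM or more was 5 in normoxia and 10 in hypoxia.

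**Figure D1:**
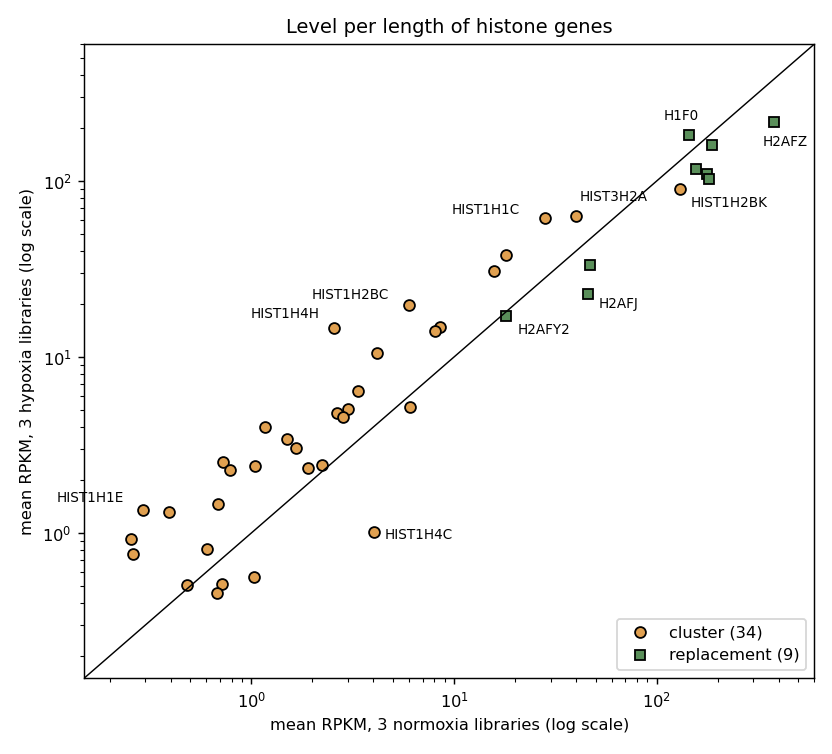
Mean RPKM of each histone gene in the 3 normoxia libraries (x axis) against the 3 hypoxia libraries (y axis), both on log scales, with cluster histones as circles, replacement variants as squares and the line of equal level. Most circles lie above the line and most squares below it, with HIST1H2BK (130 and 89.7 RPKM) and HIST1H4C (4.02 and 1.02 RPKM) among the circles below it.

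Most cluster members rose in hypoxia, while more replacement variants fell than rose. Of the 34 cluster members, 23 rose, 2 fell, 6 did not pass the threshold and 3 (HIST1H2BO, HIST1H3J and HIST1H3B) were too low to test, by edgeR's quasi-likelihood test with adjusted p under 0.05 over 15657 genes. Of the 9 replacement members, 1 rose, 5 fell and 3 did not pass. Over all genes tested, 30.4% rose and 29.1% fell. The median log2-fold change was 0.96 over the 31 cluster members tested, -0.50 over the replacement members and 0.03 over all genes. The CPM of all hypoxia libraries lay above all normoxia libraries in 22 cluster members and below in 3, and above in 1 replacement member and below in 6 (34.9% and 32.4% of all genes tested). Within the same-numbered pairs, 24 cluster members were higher in hypoxia in all 3 pairs and 7 replacement members were lower in all 3 (42.9% higher and 40.1% lower over all genes tested). Without replicate 3, 24 cluster members rose and 2 fell, whereas 1 replacement member rose and 8 fell (36.4% and 34.8% of all genes). With the replicate number as a block, 24 cluster members rose and 3 fell, and 1 replacement member rose and 7 fell (36.6% and 35.2% of all genes).

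Scaling shifted all genes together. Higher calls made up 51.1% of all calls under the trimmed mean of M values (TMM), but 64.5% with upper-quartile factors and 61.0% with library sizes alone, where the all-gene median moved from 0.03 to 0.19 and 0.14. The cluster median lay 0.93 above the all-gene median and the replacement median 0.53 below it under each of these scalings (-0.53 as a difference). The mean count behind the choice of members is weighted towards the deep hypoxia library. With genes chosen instead by a mean of at least 10 counts in normoxia, a setting added after the data were seen, 20 cluster genes rose and 2 fell. Over all genes tested, 30.4% rose and 29.1% fell. HIST1H1E, HIST4H4 and HIST2H2BA rose, but their normoxia means were under 10 counts. They were members only through their hypoxia counts, so the choice of members favoured their rises. The 39 cluster genes listed below the count minimum summed to 1.57 ± 0.159 CPM in normoxia and 1.41 ± 0.0685 in hypoxia (SD, n = 3). Just inside the minimum were HIST1H2BO (mean count 10.8) and HIST1H3J (11.8), and just outside it HIST1H4D (7.83) and HIST2H3D (6.33).

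**Figure D2:**
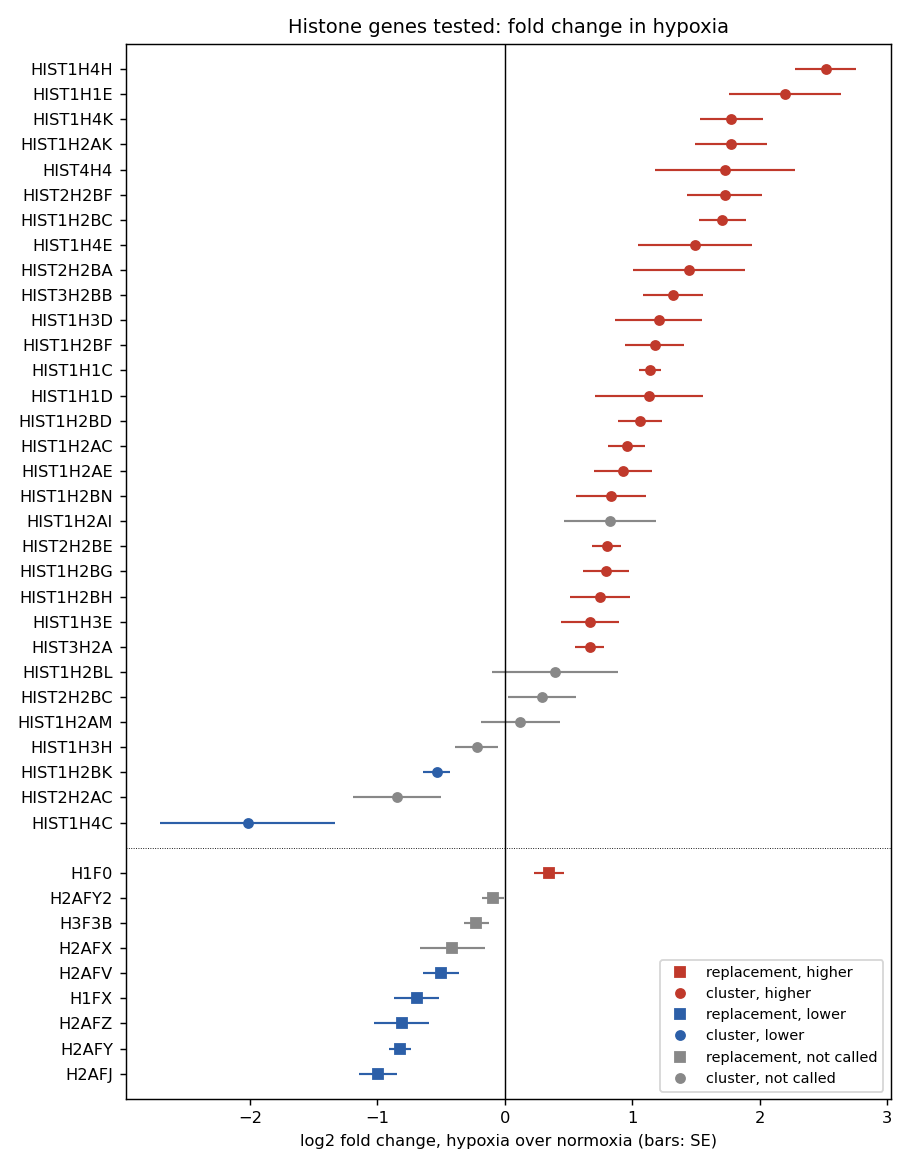
Log2-fold change of hypoxia over normoxia (x axis, bars SE) for the 40 histone genes tested, cluster histones as circles above the dotted line and replacement variants as squares below it, coloured by call at adjusted p under 0.05. The cluster genes ran from -2.02 (HIST1H4C) to 2.52 (HIST1H4H), and the replacement variants from -0.99 (H2AFJ) to 0.35 (H1F0).

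The summed cluster signal was higher in hypoxia although its most abundant gene fell. Summed over the 34 members it was 240, 230 and 209 CPM in normoxia and 325, 287 and 269 CPM in hypoxia, so all hypoxia libraries lay above, a log2 ratio of 0.37. HIST1H2BK alone made up 50.7 ± 1.87% of this sum in normoxia and 27.1 ± 0.686% in hypoxia (SD, n = 3). Without it, a setting added after seeing the data, the sums were 114, 114 and 107 CPM in normoxia and 237, 211 and 194 in hypoxia, 1.92-fold higher. The 9 replacement variants summed to 2455, 2403 and 2832 CPM in normoxia and 1785, 1709 and 2326 in hypoxia, a log2 ratio of -0.41 with no overlap of the groups. The cluster sum as a percentage of the replacement sum was 9.79, 9.57 and 7.36 in normoxia and 18.2, 16.8 and 11.6 in hypoxia. This ratio does not depend on how a library is scaled, and its log2 difference was 0.79, with a SD of 0.12 over the 3 same-numbered pairs. It compares counted RNA, and the way mRNA was selected, which is not given, may alter it.

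The annotated-end division was followed in sums. The 28 genes that stop at the stem-loop summed to 76.0, 74.6 and 75.1 CPM in normoxia and 158, 142 and 135 in hypoxia (1.93-fold). The 5 genes that run on summed to 151 ± 15.9 CPM in normoxia and 148 ± 16.9 in hypoxia (SD, n = 3), which overlap. Without HIST1H2BK, left out after its fall was seen, the other 4 summed to 37.7, 38.8 and 31.4 CPM in normoxia and 78.3, 68.3 and 58.3 in hypoxia (1.90-fold). The difference between these ratios was not tested. Of 25 other RNAs listed as lacking a poly(A) tail (small nuclear, nucleolar, Cajal body and related RNAs), 19 were in the files, and they summed to 6.51, 6.29 and 7.92 CPM in normoxia and 3.41, 3.28 and 4.35 in hypoxia. Of the 5 that could be tested, SNORA73B (log2-fold change -1.90) and SCARNA12 (-1.06) fell and none rose by edgeR's test. All hypoxia libraries lay below all normoxia libraries in 3 of the 19 and above in 2, and 14 overlapped. Over all genes tested the shares were larger, 32.4% below and 34.9% above, and 14 of the 19 had too few counts to be tested.

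**Figure D3:**
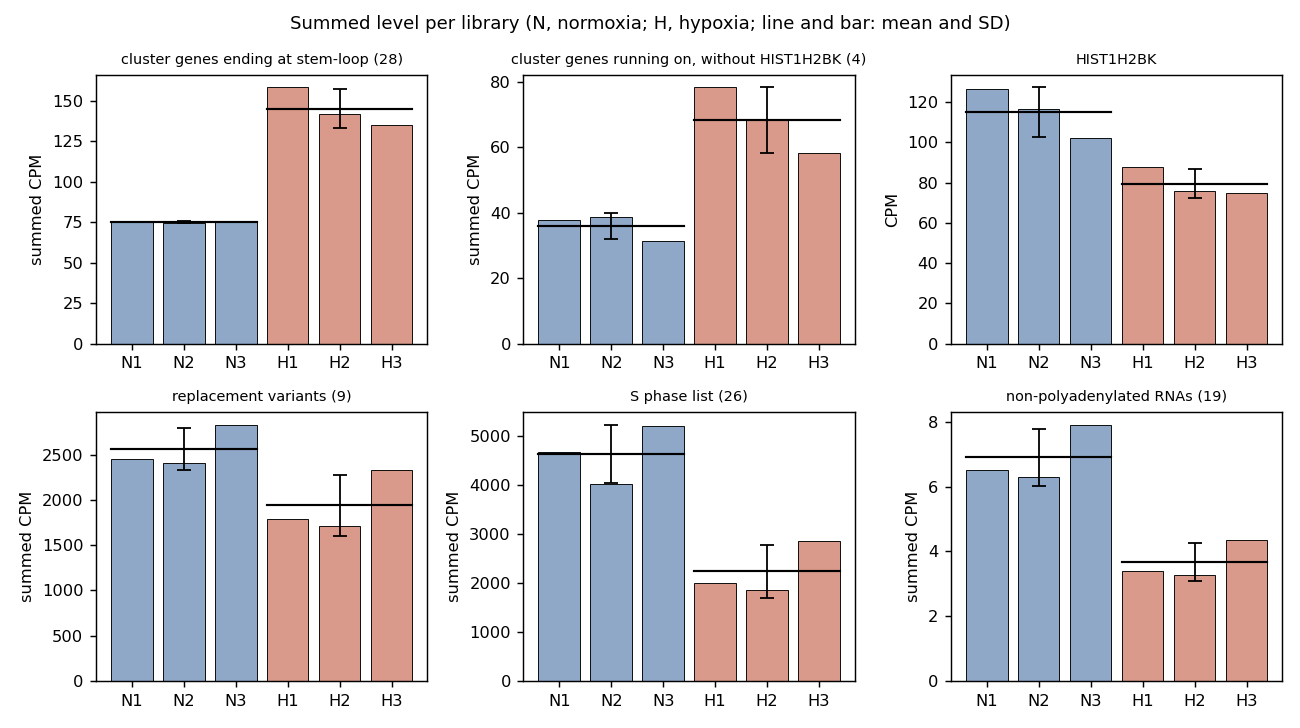
Summed CPM in each of the 6 libraries (bars; N, normoxia; H, hypoxia) for cluster genes that end at the stem-loop, cluster genes that run on without HIST1H2BK, HIST1H2BK itself, replacement variants, S phase genes and RNAs without a poly(A) tail, with the mean and SD of each condition in black. Both cluster sums were higher in every hypoxia library than in any normoxia library, and the other 4 panels were lower.

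Linker histone H1 binds DNA between nucleosomes, and its 3 cluster members all rose, where 30.4% of all genes tested rose. The sum of the 3 went from 21.4 ± 1.21 to 47.6 ± 0.853 CPM (SD, n = 3). HIST1H1C carried most of it, with 21.7, 21.3 and 18.8 CPM in normoxia and 46.3, 44.1 and 45.7 in hypoxia. Its groups were far apart, with a log2-fold change of 1.14 ± 0.09 (SE, edgeR adjusted p = 7.43e-05). HIST1H1E was low and rose from 0.101, 0.296 and 0.291 to 1.11, 1.37 and 0.722 CPM, by 2.20 ± 0.44 (edgeR adjusted p = 0.0035). With 4, 11 and 9 counts in normoxia it was a member only through its hypoxia counts, which favoured this rise. HIST1H1D rose by 1.13 ± 0.42, though its groups overlapped and the call was lost without normoxia replicate 1 (0.91), normoxia replicate 2 (0.88), hypoxia replicate 2 (1.15) or hypoxia replicate 3 (0.82).

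The replacement linker histones moved apart from each other. H1F0 (H1.0), known for its accumulation in cells that divide slowly, had 312, 319 and 377 CPM in normoxia and 390, 399 and 490 in hypoxia. It was the replacement variant that rose, by a log2-fold change of 0.35 ± 0.12 (edgeR adjusted p = 0.0336), and every hypoxia library was above every normoxia library. The call was lost without normoxia replicate 1 (0.28), normoxia replicate 2 (0.29) or hypoxia replicate 3 (0.23). H1FX (H1.10) had 248, 232 and 323 CPM in normoxia and 149, 141 and 207 in hypoxia, a log2-fold change of -0.69 ± 0.18 (edgeR adjusted p = 0.0104). Summed over all 5 H1 members, cluster and replacement, the level was 625 ± 82.3 CPM in normoxia and 640 ± 91.2 in hypoxia (SD, n = 3), a difference well inside the spread of each condition. By same-numbered pair it was 582 and 587, 573 and 587, and 720 and 745 CPM, slightly higher in hypoxia in each.

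H2A genes of the clusters encode the canonical H2A that pairs with H2B. Of the 7 members, 4 rose and 3 did not pass, where 30.4% of all genes tested rose and 29.1% fell. The sum of the 7 went from 33.0 ± 3.27 to 55.9 ± 4.89 CPM (SD, n = 3). HIST3H2A, the most abundant per length, had 18.7, 18.0 and 22.9 CPM in normoxia and 32.9, 29.2 and 32.4 in hypoxia, without overlap (log2-fold change 0.67 ± 0.12, edgeR adjusted p = 0.00183). HIST1H2AC had 8.03, 8.55 and 9.24 CPM in normoxia and 19.3, 16.9 and 14.0 in hypoxia, again without overlap (0.96 ± 0.14, edgeR adjusted p = 0.000956). HIST1H2AE rose by 0.93 and HIST1H2AK by 1.78. HIST1H2AM (0.12), HIST1H2AI (0.83) and HIST2H2AC (-0.85) did not pass the threshold. With the replicate number as a block, HIST1H2AI rose (edgeR adjusted p = 0.00882, range 0.0088 to 0.29 over the alternatives) and HIST2H2AC fell (edgeR adjusted p = 0.0455, range 0.033 to 0.26). Without 1 library, HIST1H2AI also passed (hypoxia replicate 3 left out, 1.05), as it did with upper-quartile factors (0.98), and so did HIST2H2AC (normoxia replicate 2 left out, -1.10), and HIST1H2AM changed sign (hypoxia replicate 1 left out, -0.22).

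Of the 6 H2A variants, 4 fell and none rose, where 29.1% of all genes tested fell and 30.4% rose. The sum of the 6 was 1423 ± 99.5 CPM in normoxia and 888 ± 212 in hypoxia (SD, n = 3). H2AFZ (H2A.Z, found at promoters) had 340, 314 and 417 CPM in normoxia and 181, 151 and 279 in hypoxia. All hypoxia libraries were lower, with a log2-fold change of -0.81 ± 0.22 (edgeR adjusted p = 0.0137) and -0.97 without replicate 3. H2AFV, its near relative H2A.Z.2, had 227, 221 and 215 CPM in normoxia and 143, 131 and 195 in hypoxia (-0.50 ± 0.14, edgeR adjusted p = 0.0161). Both calls were lost without hypoxia replicate 1, at -0.73 for H2AFZ and -0.44 for H2AFV, and that of H2AFV also with upper-quartile factors (-0.35). H2AFY (macroH2A1, with a large extra domain) had 376, 373 and 421 CPM in normoxia and 208, 215 and 239 in hypoxia (-0.82 ± 0.09, edgeR adjusted p = 0.00023). Its relative H2AFY2 (macroH2A2) had 40.0, 40.8 and 37.7 CPM in normoxia and 36.0, 35.1 and 40.0 in hypoxia, overlapping, with a log2-fold change of -0.09 ± 0.08 that turned positive with upper-quartile factors (0.06) and library sizes alone (0.02). Whether H2AFY and H2AFY2 differed in their change was not tested.

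H2AFJ (H2A.J) showed the greatest fall of the variants, from 164, 172 and 166 CPM in normoxia to 71.7, 73.8 and 106 in hypoxia (-0.99 ± 0.15, edgeR adjusted p = 0.000945). HIST4H4 lies close to it on chromosome 12 and rose from 0.203, 0.0806 and 0.0323 to 0.519, 0.328 and 0.295 CPM (1.73 ± 0.55, edgeR adjusted p = 0.0264), with few counts (8, 3 and 1 in normoxia, and 21, 12 and 27 in hypoxia). HIST4H4 was a member only through its hypoxia counts, which favoured this rise. The HIST4H4 call was lost without normoxia replicate 2 (1.54), normoxia replicate 3 (1.35), hypoxia replicate 1 (1.47) or hypoxia replicate 2 (1.81).

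H2AFX, the variant phosphorylated at DNA breaks, is the replacement gene with a stem-loop, and its annotated exon runs on past it. It had 247, 220 and 277 CPM in normoxia and 162, 125 and 271 in hypoxia. The hypoxia library of replicate 3 lay inside the normoxia range, and the fold change of -0.41 ± 0.25 did not pass (edgeR adjusted p = 0.195). Without hypoxia replicate 3 the log2-fold change was -0.79 and it passed, as it did with the replicate block (-0.48, edgeR adjusted p = 0.0102, range 1.3e-05 to 0.48 over the alternatives). Without both libraries of replicate 3 it was -0.70.

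H2B genes were the best represented type, with 14 of 20 listed genes as members. Of these 14, 10 rose, 1 fell, 2 did not pass and 1 was too low to test. The shares over all genes tested were 30.4% higher and 29.1% lower. HIST1H2BK, the gene with the highest cluster level, had 127, 116 and 102 CPM in normoxia and 88.0, 75.9 and 74.8 in hypoxia. It fell without overlap by 0.53 on the log2 scale (SE 0.11, edgeR adjusted p = 0.00351) and kept that call in all 17 alternative fits. Exact copies of 50 bases or more elsewhere in the genome covered 50.6% of its counted bases. HIST1H2BD, which also runs on past its stem-loop, moved the other way, from 16.9, 17.0 and 12.8 to 37.7, 34.7 and 25.5 CPM (1.06 ± 0.17, edgeR adjusted p = 0.00138). HIST2H2BE, with the longest run-on part, had 19.2, 20.4 and 17.0 CPM in normoxia and 37.2, 30.9 and 30.7 in hypoxia (0.80 ± 0.11, edgeR adjusted p = 0.000779). HIST1H2BC, which stops at its stem-loop, had 2.51, 2.79 and 2.62 CPM in normoxia and 10.1, 9.02 and 6.84 in hypoxia (1.71 ± 0.18, edgeR adjusted p = 0.000242). HIST3H2BB rose by 1.32 ± 0.24 and HIST1H2BG by 0.80 ± 0.18. Without HIST1H2BK the other 13 H2B members summed to 47.8 ± 5.04 CPM in normoxia and 94.7 ± 14.4 in hypoxia. With it the sums were 163 ± 17.0 and 174 ± 21.2, which overlap. By same-numbered pair the sums with it were 177 and 197, 167 and 171, and 144 and 155 CPM, higher in hypoxia in each.

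H3 members of the clusters were few and low. Of the 5, 2 rose, 1 did not pass and 2 were too low to test, where 30.4% of all genes tested rose. The most abundant, HIST1H3H, had 2.86, 2.93 and 2.81 CPM in normoxia and 2.72, 2.27 and 2.41 in hypoxia, lower in every library but not past the threshold (-0.22 ± 0.17, edgeR adjusted p = 0.291). HIST1H3E (0.67) and HIST1H3D (1.21) rose. HIST1H3D shares 47.2% of its counted bases with HIST1H2AD on the same strand, so that reads there cannot be assigned to either with certainty. The variant H3.3 was read from H3F3B, with 501, 512 and 599 CPM in normoxia and 445, 436 and 499 in hypoxia. Its groups did not overlap, but the change of -0.22 ± 0.10 did not pass (edgeR adjusted p = 0.0793). It passed with the replicate block (-0.22, edgeR adjusted p = 0.00472, range 0.0047 to 0.52 over the alternatives) and without hypoxia replicate 3 (-0.29). H3F3A, the other H3.3 gene, was listed at 0 in all 6 libraries, and 98.1% of its counted bases overlap H3F3AP4, listed at the same place and also at 0.

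The 5 H4 members encode 1 and the same protein, and they included the largest rise and the largest fall of the clusters. HIST1H4H had 1.01, 0.941 and 0.905 CPM in normoxia and 6.99, 5.28 and 4.23 in hypoxia. It was far above in every hypoxia library, a 5.73-fold rise (log2 2.52 ± 0.24, edgeR adjusted p = 0.000155). HIST1H4K rose from 0.431, 0.484 and 0.323 to 1.41, 1.34 and 1.53 CPM (1.78 ± 0.25, edgeR adjusted p = 0.00071), though 92.9% of its counted bases lie in exact copies elsewhere in the genome. HIST1H4E rose by 1.49 ± 0.45. HIST1H4C went from 2.46, 2.02 and 0.226 CPM to 0.494, 0.355 and 0.339 (-2.02 ± 0.69, edgeR adjusted p = 0.0345). Its normoxia replicate 3 lay below the hypoxia libraries, with 7 counts against 97 and 75 in the other normoxia libraries. Without that library the log2-fold change was -2.52 (edgeR adjusted p = 0.00036, range 4.5e-06 to 0.17 over the alternatives). The call was lost without normoxia replicate 1 (-1.54), normoxia replicate 2 (-1.82), hypoxia replicate 1 (-2.19), hypoxia replicate 2 (-1.96) or hypoxia replicate 3 (-1.90). The 5 H4 members summed to 3.33 ± 1.41 CPM in normoxia and 8.56 ± 1.68 in hypoxia (SD, n = 3), and those other than HIST1H4C, left out after its fall was seen, to 1.77 ± 0.266 CPM in normoxia and 8.17 ± 1.60 in hypoxia (SD, n = 3).

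Near-identical copies set a limit for some members. In 5 cluster members over 50% of the counted bases lay inside an exact copy of 100 bases or more elsewhere (HIST1H2AI, HIST2H2BA, HIST2H2BF, HIST2H2BC and HIST1H4K, 67.0 to 93.4%), and in 9 with copies of 50 bases or more. The 9 include HIST1H2BK (50.6%, and 32.4% with the longer copies) and HIST3H2BB (52.0% and 39.6%). No replacement member passed 50% at either length. Reads inside such copies cannot be placed uniquely, and how they were treated is not given in the sources used here. Of these 5, HIST2H2BF (1.72 ± 0.30), HIST1H4K and HIST2H2BA (1.45 ± 0.44) rose and the other 2 did not pass. HIST2H2BA, with 8, 5 and 2 counts in normoxia, was a member only through its hypoxia counts. Without them 20 cluster genes rose and 2 fell, where 30.4% of all genes tested rose and 29.1% fell. Of the 73 listed cluster genes, 14 were at 0 in all libraries, and for 6 of these over 50% of the bases had exact copies: the pairs HIST2H2AA3 and HIST2H2AA4, HIST2H3A and HIST2H3C, and HIST2H4A and HIST2H4B. Each of these pairs was also listed over the same bases of the same strand (100% overlap). Reads there cannot be assigned to either name with certainty. The other 8 at 0, among them HIST1H2AG and HIST1H4I, had no such share of copies or overlap.

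Several cluster genes lie head to head, with their promoters side by side. In 8 pairs of members the starts were 239 to 322 bases apart. Both genes rose in 5 pairs, such as HIST1H2BC (1.71) with HIST1H2AC (0.96) and HIST3H2BB (1.32) with HIST3H2A (0.67). As 23 of the 31 cluster members tested rose, many pairs would hold 2 rising genes without any link, and a link was not tested. Among these pairs, the calls of HIST1H3D and HIST1H2BN were lost with some libraries left out. The listed start of HIST1H3D, paired with HIST1H2BF, is also the start of HIST1H2AD, with which it shares counted bases. HIST1H2BO, paired with HIST1H2AM, was too low to test. In the HIST2H2BE (0.80) and HIST2H2AC (-0.85) pair the fitted changes had opposite signs, although HIST2H2AC did not pass. The octamer ATGCAAAT, which POU2F1 (Oct-1) binds and which is known from H2B promoters, was searched on both strands in the window from 250 bases before to 50 after each start in RefSeq (GRCh38.p14). It was found in 13 of the 30 cluster members with an entry, in 8 of 12 H2B and 4 of 7 H2A, in 1 of 8 replacement members (H3F3B) and in 2.19% of all 27305 genes with an entry. The sites of 3 H2B genes are shown with the octamer in capitals as it reads along the strand of the gene, because these genes ranged from the fall of HIST1H2BK to the rise of HIST1H2BC.
HIST1H2BK: ttcaccttATTTGCATgagaggtc
HIST1H2BC: catacctcATTTGCATagctctgc
HIST2H2BE: gagccctaATTTGCATaaggtggt
These 24 bases lie on the minus strand of GRCh38.p14 at chr6:27146889-27146912, chr6:26124034-26124057 and chr1:149886713-149886736. The HIST1H2BC site is the one found for HIST1H2AC as well, and the HIST2H2BE site the one found for HIST2H2AC. The site counted for HIST1H3D, not shown, is the one found for HIST1H2AD.

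Cluster members rose both with and without the octamer. Of the 13 with it (12 tested), 9 rose and 1 fell, with log2-fold changes from -0.85 to 1.72. Of the 17 without it (16 tested), 13 rose and none fell, from -0.22 to 2.52. Beside these stand 30.4% of all genes tested that rose and 29.1% that fell. CCAAT was present in 26 of the 30 cluster members and in 39.7% of all genes, and the 4 without it were H4 genes. TATAAA was present in 20 of the 30 and in 14.0% of all genes. ACGTG or GCGTG, the letters of hypoxia response elements, were present in 8 of the 30 cluster members, in 7 of 8 replacement members and in 52.4% of all genes. Of the 8 cluster members with either (7 tested), 5 rose, and of the 22 without (21 tested), 17 rose (30.4% over all genes tested). These letter matches are descriptions and not sites of binding.

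Genes that act on histone mRNA or histone proteins were taken from lists by function. Their counts stand beside 30.4% of all genes tested that rose and 29.1% that fell. Of 26 S phase genes, which serve DNA copying, 24 fell and none rose, with a median log2-fold change of -1.09 against 0.03 over all genes. TYMS (thymidylate synthase) went from 94.6, 85.8 and 97.5 to 33.6, 30.0 and 40.1 CPM (-1.42 ± 0.12, edgeR adjusted p = 9.78e-05). UNG (uracil-DNA glycosylase) fell by 1.27 and MCM6 (replicative helicase) by 1.57 on the log2 scale. Most cluster histones rose in the same libraries in which most of the S phase list fell, and the part of the S phase change in the histone values was not tested.

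Chaperones of newly made histones mostly fell as well, where 29.1% of all genes tested fell and 30.4% rose. Of 12, 11 fell and none rose (median -0.98), among them CHAF1B, a subunit of chromatin assembly factor 1 (-1.22 ± 0.11), NASP, which holds free H3 and H4 (176 ± 9.06 and 87.5 ± 11.1 CPM), and ASF1A (-1.02 ± 0.11). ASF1B (-0.61) was the gene that did not pass, and it fell with the exact test (-0.62), DESeq2 (-0.63), all genes of at least 1 count (-0.62) and the replicate block (-0.67, edgeR adjusted p = 0.00116, range 2.5e-07 to 0.24 over the alternatives) and without hypoxia replicate 3 (-0.99). Of 18 genes for histone transcription and 3′ end processing, 13 fell and 2 rose (72.2% and 11.1%, median -0.53). NPAT, the coactivator of cluster genes, fell from 61.0 ± 2.63 to 50.4 ± 1.31 CPM (SD, n = 3). This change of -0.28 on the log2 scale lost its call without normoxia replicate 1 (-0.25) or hypoxia replicate 1 (-0.27), and with upper-quartile factors (-0.12) or library sizes alone (-0.16). SLBP went from 113, 108 and 116 to 83.2, 79.8 and 94.2 CPM (-0.39 ± 0.09, edgeR adjusted p = 0.00523). CASP8AP2 (FLASH), which joins the processing complex, fell by 0.63, and the cleavage factor genes CPSF2 and CPSF3 by 1.04 and 0.60 on the log2 scale. HINFP, which activates H4 genes, rose from 37.3 ± 0.997 to 55.2 ± 3.68 CPM (0.57 ± 0.08). POU2F1 rose by 0.29, a call lost without any library other than hypoxia replicate 1 (0.22 to 0.32).

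Decay genes were called about as often as all genes. Of 7 genes for the decay of histone mRNA, 2 rose and 2 fell (28.6% each, median 0.00). Over all genes tested, 30.4% rose and 29.1% fell, so the split is not particular to these genes. DCP2, the decapping enzyme, rose from 163 ± 11.6 to 309 ± 29.0 CPM (0.92 ± 0.10, edgeR adjusted p = 0.000211). XRN1, a 5′ to 3′ exonuclease, rose by 0.31, lost without normoxia replicate 1 (0.33), normoxia replicate 3 (0.21), hypoxia replicate 1 (0.33) or hypoxia replicate 2 (0.22). LSM1, of the ring that binds the mRNA end, fell by 0.58 and EXOSC10, a nuclear exosome nuclease, by 0.45 on the log2 scale.

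Of 18 chaperones and exchange factors of histone variants, 10 fell and 2 rose (median -0.35), and with the replicate block 13 fell and 2 rose. Over all genes tested, 29.1% fell and 30.4% rose, and with the block 35.2% and 36.6%. HIRA, which places H3.3, had 44.1, 44.2 and 52.7 CPM in normoxia and fell to 34.1 ± 1.83 CPM in hypoxia (SD, n = 3; log2-fold change -0.46 ± 0.10). SRCAP, which places H2A.Z, fell by 0.46, SUPT16H of the FACT complex by 0.73 and NAP1L4 by 0.58 on the log2 scale. CENPA, the centromeric H3, fell from 26.6 ± 1.61 to 14.8 ± 4.56 CPM (-0.84 ± 0.20, edgeR adjusted p = 0.00835). DAXX, the H3.3 chaperone at repeats, had a log2-fold change of -0.26 (edgeR adjusted p = 0.0472) that was lost without any library other than hypoxia replicate 3 (-0.31 to -0.20), with upper-quartile factors (-0.11) or library sizes alone (-0.15), and with all genes of at least 1 count (-0.27) or a mean of at least 50 counts (-0.22). Its partner ATRX had 0.01 ± 0.19 (edgeR adjusted p = 0.958), with a sign that changed without normoxia replicate 3 (-0.12), hypoxia replicate 1 (-0.09) or hypoxia replicate 2 (-0.09). NAP1L1, which binds H2A and H2B, rose by 0.25, lost without normoxia replicate 1 (0.24), normoxia replicate 3 (0.19), hypoxia replicate 1 (0.22) or hypoxia replicate 2 (0.23). UBN2, a partner of HIRA, rose by 0.50, lost without hypoxia replicate 2 (0.36).

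Most of the cluster calls rested on more than 1 library. Of the 25 cluster calls, 16 held with each library left out in turn. The 9 that did not include HIST1H1D, HIST1H4C and HIST4H4, given above, and HIST1H2BH, HIST1H2BN, HIST1H3D, HIST1H3E, HIST1H4E and HIST2H2BA, all with positive log2-fold changes in every alternative fit that tested them (0.49 to 2.15). The HIST2H2BA call was also lost with DESeq2. Of the 6 replacement calls, those of H2AFY, H2AFJ and H1FX held.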

How the data were processed

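RNA of T47D cells was read in 3 normoxia and 3 hypoxia libraries. Per the labels and the study's methods, the authors made stranded mRNA libraries, checked reads with FastQC 0.11.5, trimmed them with Skewer, aligned them with STAR 2.5.2a to hg19 (GRCh37) and deposited raw read counts per RefSeq gene from featureCounts 1.5.1. The strand setting, the treatment of reads with several matches and the selection step are not given in the sources used here. The labels give 0.5% O2 for hypoxia, while the study's text describes 1%. Total counts were 32989104 to 89883409 per library.

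Counts were scaled by TMM to CPM and tested with edgeR 4.0.16 (R 4.3.3; glmQLFit and glmQLFTest, condition only, filterByExpr with a minimum count of 10 and total of 15, threshold 0.05 after Benjamini-Hochberg adjustment over 15657 genes). The study named edgeR's exact test, which was an alternative beside DESeq2 1.42.0, other scalings and filters, a replicate block and libraries left out. Sums and medians carry no test. Groups came from the titles. The study speaks of paired samples without naming the pairs, and taking the replicate numbers as pairs was an assumption. Deviations of same-numbered libraries from their condition means had correlations of 0.338, 0.422 and 0.575. Differently numbered libraries were not compared, and replicate 3 stood apart in both conditions, so these values cannot show the pairing. A log2 value with a pseudocount of 0.5 gave the pairwise signs. On simulated counts (15657 genes, 198 changed and tested) the test recovered 94.2% of genes changed by 1 log2 unit and 100% by 2. Of its calls there, 5.39% were genes not changed. The simulation gave every gene the same spread and no replicate that stood apart, so these rates need not hold for the histone genes.

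Stem-loops (GG, 3 pyrimidines, T, a loop of T, any base but G, T and any base, then A, 3 purines, CC), overlaps and exact copies were searched in GRCh37 with the deposited exon positions. Genes are named by a rule: all replacement members, the 12 cluster members highest by RPKM, up to 5 further cluster genes with the largest change each way, members with over 50% of bases in copies, NPAT, CASP8AP2, SLBP, HIRA, DAXX, ATRX, CENPA and the 3 list genes of smallest p each way in each list, with VEGFA and CA9 as a check of the labels. Other genes were named with their values in view. The members, lists and rules were chosen with earlier results of these data known.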

Additional observations from a re-analysis of the deposited data

How the results depend on the processing

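Fits over all genes were repeated under 17 alternatives, and class sums under fewer. The exact test, DESeq2, RLE factors and all genes with at least 1 count left each count of called members and of list genes within 1.5 times of the value reported. Requiring a mean of at least 50 counts for all genes left 15 cluster genes higher and 1 lower, and keeping members with a mean of at least 100 counts left 10 higher and 1 lower, as fewer members were tested. The log2 ratio of the summed cluster CPM was 0.53 with upper-quartile factors and 0.49 with library sizes alone, and that of the replacement sum -0.25 and -0.30. Averaging log2(CPM + 0.5) over members in place of summing gave 0.58 for the cluster genes and 1.06 for the cluster to replacement difference. Leaving HIST1H2BK out of the sums, an alternative added after seeing the data, gave a log2 ratio of the cluster sum of 0.94 and a cluster to replacement difference of 1.35. H2AFY2 reversed to 0.063 with upper-quartile factors and 0.022 with library sizes alone; the cause was not tested.

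With libraries or same-numbered pairs left out, 13 to 24 cluster genes rose and 1 to 2 fell, and 0 to 1 replacement genes rose and 2 to 8 fell. The lowest counts came without both libraries of replicate 1 (13 and 2) and of replicate 2 (14 cluster genes higher) or hypoxia replicate 1 (3 replacement genes lower), and the 8 without replicate 3. The median of the cluster members ran from 0.79 to 1.10 and that of the replacement members from -0.79 to -0.39. The log2 ratio of the cluster sum ran from 0.30 to 0.43, that of the replacement sum from -0.55 to -0.33, and the cluster to replacement difference from 0.65 to 0.98. Of the variant chaperones and exchange list, 3 (without replicate 1) to 16 (without replicate 3) genes were called. Of genes not called, ATRX ran from -0.12 to 0.19, HIST1H2AM from -0.22 to 0.43 and HIST1H2BL from -0.11 to 0.73.

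With the replicate number as a block, 24 cluster genes rose and 3 fell, and 1 replacement gene rose and 7 fell. In the lists, 26 S phase genes, 12 chaperones of newly made histones and 15 variant chaperones and exchange factors were called. Of all genes, 36.6% rose and 35.2% fell with the block. Among the members, it changed the calls of HIST1H2AI, HIST2H2AC, H2AFX and H3F3B, and among the other genes named that of ASF1B; it changed no other call of a gene named. Depth limits the cluster genes most: 22 of the 34 had a mean under 100 counts.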
